A study of Mus musculus with 50 samples.

Results

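Mouse embryonic stem cells that lacked both endogenous Dux and G9a were compared after the additional loss of Setdb1. The comparison held 4 of the 50 libraries of the series, chosen by genotype and by the absence of doxycycline. The group without Setdb1 (G9a;Setdb1-DKO in the labels, hereafter DKO) had 2 libraries. Its counterpart that kept Setdb1 (hereafter G9a-KO) also had 2. All 4 came from embryonic stem cells of strain TT2, lacked endogenous Dux (Dux-KO), carried a doxycycline-inducible Dux transgene (Tet-on-Dux) and had received no doxycycline. The labels do not say how many clones the lines represent. Titles of DKO libraries carried OHT and titles of G9a-KO libraries carried NT. The labels explain neither abbreviation, and any effect of OHT itself cannot be told apart from Setdb1 loss. For comparison, the same genotypes were read with doxycycline, in cells with endogenous Dux, and in a Dux-null control line with and without Setdb1. Nothing in the labels says whether replicates were grown separately. Each p-value rests on the spread between replicates, estimated over all groups of a table rather than these 4 libraries alone, and that spread may be technical.

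Setdb1 and G9a (the product of Ehmt2) both methylate lysine 9 of histone H3, a mark of silent chromatin. Setdb1 adds 3 methyl groups and is brought to its targets largely by zinc-finger proteins through Trim28, whereas G9a acts with its partner Ehmt1 and mainly adds up to 2. Both are known to silence retrotransposons and germline genes in embryonic stem cells. Dux is a homeobox transcription factor that switches on genes of the 2-cell embryo and the retrovirus MERVL. The lines called Dux-null here lacked endogenous Dux. Low RNA of the Dux transgene was still listed without doxycycline, at 2.13 to 4.51 TPM in the 4 libraries, so they are not shown to be free of Dux.

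RNA was measured by sequencing of poly(A) RNA, and levels are TPM, transcript abundances scaled by length and to a fixed total, as deposited by the authors. TPM keep no sequencing depth, so the depth behind each value is unknown. In the 4 libraries 11962 to 12690 genes reached 1 TPM. The labelled cell type was checked against stem cell markers: Pou5f1 lay at 1765 and 2108 TPM in DKO and at 1471 and 1547 TPM in G9a-KO, and Nanog at 321 and 329 TPM in DKO and at 279 and 278 TPM in G9a-KO. The fibroblast genes Col3a1 and Postn stayed below 0.1 TPM in all 4 libraries, but other members of that list were expressed at low levels. All 15 together summed to 12.8 and 15.5 TPM in DKO and to 20.7 and 19.3 TPM in G9a-KO.

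One library stood apart. Neat1, a long non-coding RNA retained in the nucleus, lay at 2.76 and 53.2 TPM in DKO replicates 1 and 2 and at 4.54 and 2.47 TPM in the 2 G9a-KO replicates. Malat1, another nuclear-retained RNA, lay at 3.73 and 31.6 TPM in DKO and at 5.94 and 3.29 TPM in G9a-KO. DKO replicate 2 was thus high in both, while DKO replicate 1 did not stand out from G9a-KO. The Snhg genes, whose introns carry small nucleolar RNAs, numbered 16 in the table, and 13 of them were highest in DKO replicate 2. In DKO replicate 1, 1 of the 16 genes, Snhg10, exceeded both G9a-KO libraries. The mean log2(TPM+1) of the Snhg genes was 2.41 and 4.22 in DKO and 2.68 and 2.66 in G9a-KO, and 6 of the 32 libraries of the table exceeded 4. Counts are therefore also given without DKO replicate 2, and the part of nuclear RNA in any single result was not tested.

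**Figure D1:**
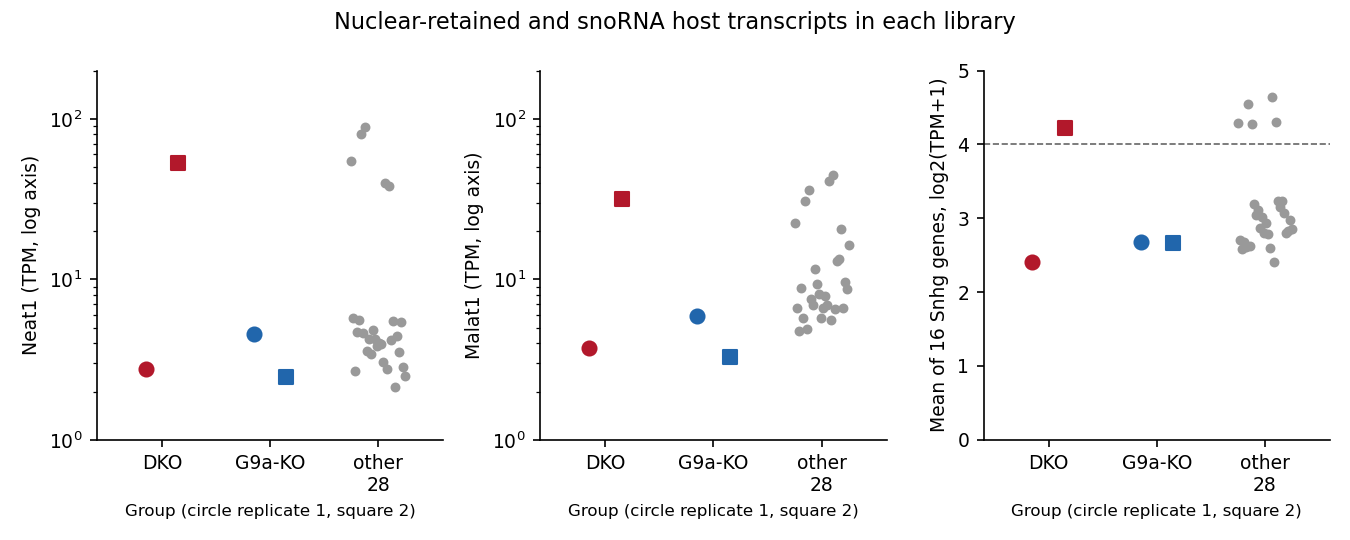
Levels of Neat1 and Malat1 (TPM, log axes) and the mean log2(TPM+1) of 16 Snhg genes, with each library as a point: DKO in red, G9a-KO in blue, the other 28 libraries of the table in grey. The dashed line marks 4, and DKO replicate 2 (4.22) lies above it while the other libraries of the comparison lie between 2.41 and 2.68.

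The targeted genes were read first. Setdb1 (chr3:95323525-95357202, GRCm38) lay at 14.6 and 28.4 TPM in DKO and at 48.7 and 38.1 TPM in G9a-KO, with no overlap between the groups. Its log2 fold change on log2(TPM+1) was -1.04 (SE 0.31, adjusted p = 0.0332), so residual Setdb1 RNA remained, and TPM over the whole gene do not show which exons it held. The call was lost without either G9a-KO replicate and without DKO replicate 1, with log2 fold changes between -0.58 and -1.21, and held without DKO replicate 2 (-1.50). Ehmt2 (chr17:34898469-34914052), the gene of G9a, lay at 2.90 and 6.58 TPM in DKO and at 3.25 and 2.40 TPM in G9a-KO, against 110 and 129 TPM in the Dux-null control cells. Both groups were thus far below the control cells. Suv39h1 lay at 15.04 and 23.14 TPM in DKO and at 15.96 and 16.16 TPM in G9a-KO. Suv39h2 lay at 15.89 and 21.58 TPM in DKO and at 14.99 and 15.49 TPM in G9a-KO. Neither of these 2 further H3K9 methyltransferase genes was called. The Tet-on-Dux transgene lay at 4.51 and 2.13 TPM in DKO and at 3.63 and 2.90 TPM in G9a-KO (log2 fold change -0.03, adjusted p = 0.967), against 39.7 and 40.4 TPM in DKO cells given doxycycline.

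The MERVL reporter was higher in DKO. The reporter row, a MERVL promoter joined to a green fluorescent protein by its name, lay at 101 and 96.3 TPM in DKO and at 34.2 and 29.6 TPM in G9a-KO. The log2 fold change was 1.6 (SE 0.39, adjusted p = 0.00861), and without DKO replicate 2 it was 1.64 (adjusted p = 0.0492). The 2 DKO libraries agreed closely here, including the one high in nuclear RNA.

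Genes were tested with limma where they reached 1 TPM in at least 2 libraries of the table, 13817 in all, and one was called higher or lower when its adjusted p was under 0.05 and its log2 fold change was 1 or more in size. In DKO 516 genes were higher (3.73%) and 169 were lower (1.22%), 685 in all (4.96%). When only the 4 libraries compared were fitted, 66 were higher and 7 lower, and 56 of the 86 called genes named here, Setdb1 among them (adjusted p = 0.244), were not called. Without DKO replicate 2 the numbers were 332 higher (2.4%) and 172 lower (1.24%), and without DKO replicate 1 they were 785 higher (5.68%) and 162 lower (1.17%). With the nuclear RNA class as a term they were 435 higher (3.15%) and 197 lower (1.43%). Higher genes made up 75.3% of all calls in the comparison, 65.9% without DKO replicate 2, 68.8% with the nuclear RNA class as a term and 63.6% after scaling by median ratios. The median log2 fold change of all tested genes was 0.13 in the comparison and -0.0014 without DKO replicate 2. The higher call was shared by the comparison, the fit without DKO replicate 2 and the fit with the nuclear RNA term in 283 genes (2.05%), and the lower call in 117 genes (0.847%). Libraries of the groups did not overlap for 46.6% of tested genes.

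Among genes with an assigned name, the largest rises included textbook products of pancreas, liver and macrophages. Reg1 (chr6:78422711-78428667), which encodes a secreted protein of the pancreas, lay at 41.5 and 46.4 TPM in DKO and at 0.261 and 1.3 TPM in G9a-KO (log2 fold change 4.72, SE 0.27, adjusted p = 6.06e-10). Mmp1b (chr9:7368239-7388047), a collagenase-like metalloproteinase gene, lay at 27.0 and 33.4 TPM in DKO and at 0.238 and 0.107 TPM in G9a-KO (4.73, SE 0.33). Both genes were nearly silent in G9a-KO and well expressed in both DKO libraries. Mup3 (chr4:62083476-62087342), a major urinary protein gene of the liver, lay at 20.3 and 21.5 TPM in DKO and at 0.104 and 0.0936 TPM in G9a-KO (4.32, SE 0.16). Clec2f (chr6:129014112-129020527), annotated in GENCODE M21 as a transcribed pseudogene of the C-type lectin family, lay at 23.7 and 29.5 TPM in DKO and at 0 and 0.150 TPM in G9a-KO (4.68, SE 0.39). Clec2g (chr6:128934381-128984707), a neighbour that encodes a C-type lectin-like surface protein, lay at 18.9 and 37.4 TPM in DKO and at 0.645 and 0.579 TPM in G9a-KO (4.1, SE 0.33).

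Enzymes of steroid and lipid metabolism were among them. Akr1c21 (chr13:4574075-4586541), a hydroxysteroid dehydrogenase gene, reached the highest level of the group, 161 and 228 TPM in DKO against 9.31 and 11.8 TPM in G9a-KO (4.07, SE 0.37). Cyp4a12b, a fatty acid hydroxylase of the cytochrome P450 family, lay at 18.2 and 15.9 TPM in DKO and at 0.129 and 0.262 TPM in G9a-KO (3.91, SE 0.21). Pnliprp2, a lipase-related gene of the pancreas, lay at 12.2 and 16.3 TPM in DKO and at 0.628 and 0.660 TPM in G9a-KO (3.20, SE 0.19). Akr1c21 alone of these 3 was above 1 TPM in G9a-KO. Spag16 (chr1:69826970-70725132), which encodes a protein of the sperm tail, lay at 25.7 and 42.5 TPM in DKO and at 2.29 and 2.38 TPM in G9a-KO (3.35, SE 0.22). Asb12, an ankyrin-repeat gene of the SOCS-box family, lay at 34.3 and 42.0 TPM in DKO and at 1.23 and 1.17 TPM in G9a-KO (4.15, SE 0.29). Clvs1, which encodes a lipid-binding protein of coated vesicles, lay at 20.9 and 40.6 TPM in DKO and at 2.40 and 2.50 TPM in G9a-KO (3.13, SE 0.26). The groups of the 15 largest rises do not overlap because the rule that names them requires it.

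Mmp12 (chr9:7344381-7369499), the macrophage elastase gene, lies beside Mmp1b and overlaps it on the other strand. It lay at 33.5 and 46.3 TPM in DKO and at 2.73 and 3.63 TPM in G9a-KO (3.28, SE 0.26), and the sources used here do not say whether reads were counted by strand, so the overlap may be shared between them. Ceacam2, a cell adhesion gene, lay at 17.3 and 18.4 TPM in DKO and at 0.971 and 0.614 TPM in G9a-KO (3.40, SE 0.35). Bglap3, of the osteocalcin family, lay at 8.85 and 49.3 TPM in DKO and at 0.145 and 0.132 TPM in G9a-KO (4.29, SE 0.89). The DKO libraries differed widely for Bglap3, and its call was lost without replicate 2 (3.11). The other 14 of the 15 largest rises among named genes were also called without that library. Clec2f, Clec2g, Mup3, Cyp4a12b, Akr1c21 and Ceacam2 have close paralogs, so the split of reads between copies is uncertain. A list of 20 tissue-restricted genes, drawn up with these data known, had 14 members tested, of which 8 were higher, among them Cyp2b23 at 115 and 159 TPM in DKO and 25.9 and 24.3 TPM in G9a-KO. Ly6k, a surface protein gene of the testis, lay at 25.1 and 24.9 TPM in DKO and at 4.40 and 4.46 TPM in G9a-KO (2.26). One, Akr1c18, was lower, and without DKO replicate 2 the counts were 7 higher and 1 lower. Wfdc15a lay at 89.0 and 90.6 TPM in DKO and at 64.8 and 62.4 TPM in G9a-KO, and was not called.

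**Figure D2:**
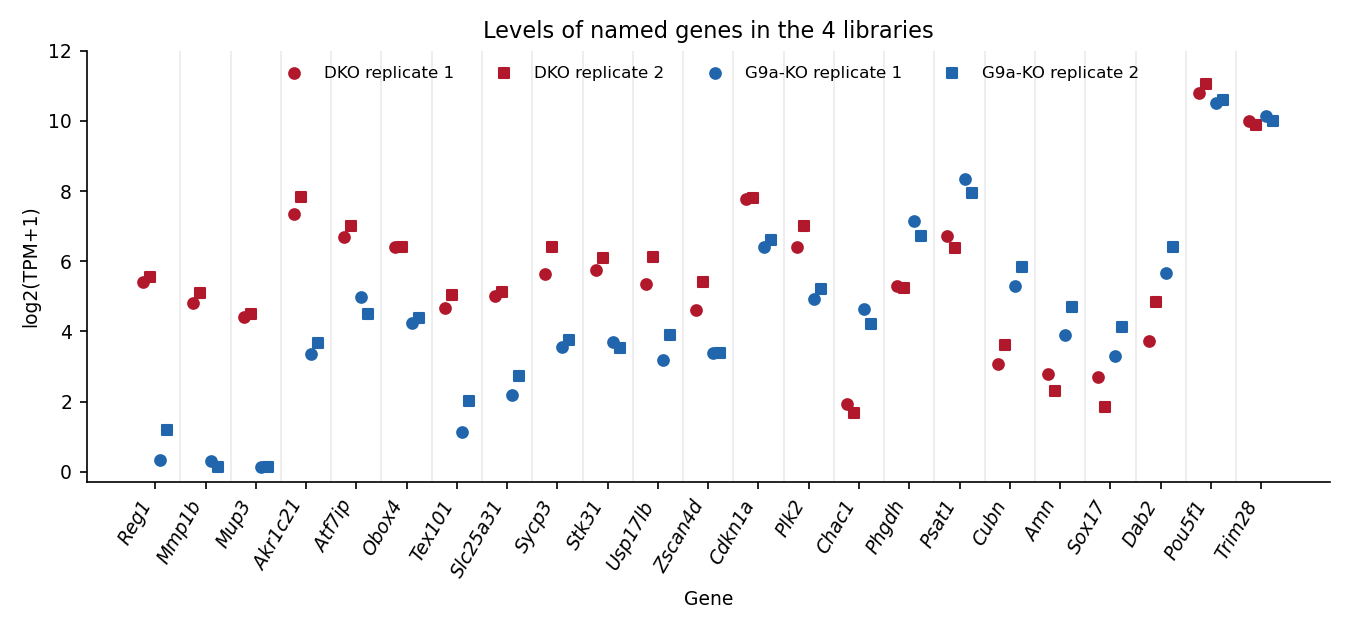
Levels of 23 named genes as log2(TPM+1), with DKO libraries in red left of G9a-KO libraries in blue (circles replicate 1, squares replicate 2). Genes from Reg1 to Plk2 lie higher in both DKO libraries and genes from Chac1 to Dab2 lower, while Pou5f1 and Trim28 differ little.

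Part of the germline and meiotic genes were higher in DKO. Of 44 tested members of that list 18 were higher, none was lower and 26 were not called, with a median log2 fold change of 0.74 against 0.13 over all tested genes. Without DKO replicate 2, 11 members were higher, with a median of 0.52 against -0.0014. The count was 13 without G9a-KO replicate 1 (2.95% of all genes called higher), 16 without G9a-KO replicate 2 (2.97%) and 21 without DKO replicate 1. Without all 6 libraries high in nuclear RNA, 12 were higher and 2 were lower. Many promoters of such genes are known to carry an E-box bound by MGA with MAX and a site bound by E2F6, subunits of a repressive Polycomb complex (PRC1.6). Promoter sequences from RefSeq (GRCm38.p6, 250 bases before to 50 bases after the annotated start) were therefore searched on both strands for CACGTG, which reads the same on both strands, and for GCGGGAA.

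Of the 18 higher germline genes, 16 had a promoter in RefSeq, of which 10 held CACGTG (62.5%), 5 held GCGGGAA (31.2%) and 5 held both (31.2%), with no overlap between the motifs. Among the 23 uncalled members with a promoter, 6 held CACGTG (26.1%), 6 held GCGGGAA (26.1%) and 0 held both. Over 10438 tested genes with a promoter the shares were 11.8%, 9.78% and 0.987%. Among all 359 genes called higher that had a promoter they were 8.64%, 6.69% and 2.23%. These are counts of letters in a window and say nothing of binding. The 3 promoters below, from higher genes, hold both motifs, and that of Tex101, the germline gene with the largest fold change, holds neither. Each is printed 5′ to 3′ on the strand of its gene, with the motifs in capitals.
Sycp3 (chr10:88459337-88459636, plus strand): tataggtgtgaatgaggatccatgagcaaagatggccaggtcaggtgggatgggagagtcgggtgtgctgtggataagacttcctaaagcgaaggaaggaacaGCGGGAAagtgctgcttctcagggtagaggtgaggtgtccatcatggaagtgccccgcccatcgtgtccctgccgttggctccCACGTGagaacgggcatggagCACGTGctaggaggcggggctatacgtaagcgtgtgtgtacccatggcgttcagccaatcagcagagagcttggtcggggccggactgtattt
Slc25a31 (chr3:40708621-40708920, plus strand): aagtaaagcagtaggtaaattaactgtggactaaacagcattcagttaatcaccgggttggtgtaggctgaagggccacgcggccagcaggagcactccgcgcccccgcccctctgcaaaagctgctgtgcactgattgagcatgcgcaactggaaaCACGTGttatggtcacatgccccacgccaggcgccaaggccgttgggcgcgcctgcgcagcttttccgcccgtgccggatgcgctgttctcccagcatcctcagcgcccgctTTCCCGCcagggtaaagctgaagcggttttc
Ddx4 (chr13:112652261-112652560, minus strand): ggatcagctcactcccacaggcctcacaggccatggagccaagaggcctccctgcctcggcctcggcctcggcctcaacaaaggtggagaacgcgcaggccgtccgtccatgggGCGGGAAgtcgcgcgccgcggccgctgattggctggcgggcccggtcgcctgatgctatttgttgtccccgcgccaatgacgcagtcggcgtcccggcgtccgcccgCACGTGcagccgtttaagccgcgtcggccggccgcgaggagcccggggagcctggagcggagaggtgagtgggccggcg
Tex101 (chr7:24672001-24672300, minus strand): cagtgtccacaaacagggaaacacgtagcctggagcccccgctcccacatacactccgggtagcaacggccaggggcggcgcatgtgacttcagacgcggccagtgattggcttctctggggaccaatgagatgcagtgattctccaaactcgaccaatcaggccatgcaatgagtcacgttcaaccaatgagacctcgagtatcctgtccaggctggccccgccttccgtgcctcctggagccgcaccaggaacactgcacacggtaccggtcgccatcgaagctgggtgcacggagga
In Sycp3 the 2 E-boxes begin 64 and 43 bases before the start and the GCGGGAA motif 147 bases before it. In Slc25a31 the E-box begins 93 bases before the start, and in Ddx4 it begins 29 bases before it. The window printed for Tex101 lies inside the gene as GENCODE M21 places it (chr7:24668007-24676675). Sequence around a start elsewhere in that gene was not searched.

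Sycp3, a structural component of the synaptonemal complex of meiotic chromosomes, lay at 48.7 and 83.1 TPM in DKO and at 10.8 and 12.6 TPM in G9a-KO (log2 fold change 2.35, SE 0.35, adjusted p = 0.000128). Slc25a31, the ADP/ATP carrier of male germ cell mitochondria, lay at 31.4 and 33.7 TPM in DKO and at 3.54 and 5.59 TPM in G9a-KO (2.62, SE 0.24). Tex101, a surface glycoprotein of germ cells, lay at 24.6 and 31.6 TPM in DKO and at 1.19 and 3.08 TPM in G9a-KO (3.27, SE 0.30). All 3 kept their calls without DKO replicate 2. Ddx4, the germ cell RNA helicase also called Vasa, lay at 21.0 and 31.7 TPM in DKO and at 10.2 and 11.0 TPM in G9a-KO (1.21, SE 0.21), and its call was lost without that library (0.92). Tex15, which is needed for meiosis and for silencing in male germ cells, lay at 8.79 and 31.1 TPM in DKO and at 1.03 and 1.902 TPM in G9a-KO (2.87, SE 0.55). Taf7l, a germ cell paralog of a general transcription factor subunit, lay at 10.14 and 28.02 TPM in DKO and at 1.19 and 3.81 TPM in G9a-KO (2.47, SE 0.52), and its call was also lost (1.78), as it was without G9a-KO replicate 1 (1.904).

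Genes of the PIWI pathway, which guides silencing of transposons in germ cells, were among the 18. Mael lay at 64.8 and 56.2 TPM in DKO and at 15.2 and 16.2 TPM in G9a-KO. Piwil2 lay at 20.9 and 21.6 TPM in DKO and at 6.70 and 7.74 TPM in G9a-KO. Mov10l1, the helicase partner of PIWI proteins, lay at 6.41 and 11.0 TPM in DKO and at 1.63 and 1.78 TPM in G9a-KO. The calls of all 3 held without DKO replicate 2. Stk31, a germ cell kinase-like gene, lay at 53.2 and 67.2 TPM in DKO and at 12.1 and 10.6 TPM in G9a-KO. Dazl, a germ cell RNA-binding protein gene, lay at 27.9 and 60.1 TPM in DKO and at 8.73 and 12.8 TPM in G9a-KO. Brdt, the testis bromodomain gene, lay at 2.24 and 4.19 TPM in DKO and at 0.156 and 0.336 TPM in G9a-KO. These 3 were likewise called with and without that library, and Mael, Piwil2, Mov10l1, Stk31, Dazl and Brdt together with Sycp3, Ddx4 and Tex19.1 were chosen after their values were seen. Tex19.1, which protects germ cells from retrotransposons, was already abundant, at 221 and 237 TPM in DKO and 69.5 and 103 TPM in G9a-KO. Rpl10l lay at 252 and 257 TPM in DKO and at 238 and 331 TPM in G9a-KO, and Mov10 at 174 and 117 TPM in DKO and at 208 and 129 TPM in G9a-KO. Neither of these 2 most abundant uncalled members showed groups that lay apart.

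None of the 13 tested genes of PRC1.6 and related repressors was called in either direction. Over all tested genes 4.96% were called, so the absence of calls in the short lists of this paragraph says little about them. Hdac1 lay at 319 and 359 TPM in DKO and at 319 and 272 TPM in G9a-KO, and Hdac2 at 195 and 230 TPM in DKO and at 248 and 221 TPM in G9a-KO. None of 7 tested Magea genes, a cancer-testis family on the X chromosome, was called. Magea8 lay at 121 and 136 TPM in DKO and at 118 and 138 TPM in G9a-KO, and Magea2 at 77.4 and 86.8 TPM in DKO and at 70.4 and 91.5 TPM in G9a-KO. None of 33 imprinted genes was called (1 was lower without DKO replicate 2), with Gnas at 352 and 372 TPM in DKO and 344 and 323 TPM in G9a-KO, and Slc38a4 at 250 and 235 TPM in DKO and 219 and 197 TPM in G9a-KO. None of 11 genes of DNA methylation was called, with Dnmt3l at 365 and 368 TPM in DKO and 361 and 371 TPM in G9a-KO, and Uhrf1 at 233 and 239 TPM in DKO and 292 and 200 TPM in G9a-KO.

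Part of the 2-cell embryo genes, which Dux activates, were higher in DKO cells that had no endogenous Dux. Of 45 tested members 13 were higher, none was lower and 32 were not called, with a median log2 fold change of 1.02. Over all tested genes 3.73% were higher, with a median of 0.13. That count rested on the libraries in use: it was 2 without DKO replicate 2, 2 without G9a-KO replicate 1, 7 without G9a-KO replicate 2 and 17 without DKO replicate 1, and 11 without all 6 libraries high in nuclear RNA (3.12% of all genes called higher). The medians were 0.63, 0.99, 1.21, 1.77 and 0.63 in that order. Usp17lb, one of a family of deubiquitinase genes, lay at 40.3 and 69.4 TPM in DKO and at 8.09 and 13.9 TPM in G9a-KO (2.21, SE 0.45, adjusted p = 0.00227). Usp17ld, of the same family, lay at 10.7 and 13.9 TPM in DKO and at 3.94 and 2.25 TPM in G9a-KO (1.72, SE 0.33). These 2, named after their values were seen, were the members called without DKO replicate 2. Zscan4d, a zinc-finger gene of the 2-cell embryo also named after its values were seen, lay at 23.6 and 41.4 TPM in DKO and at 9.41 and 9.39 TPM in G9a-KO (1.64, SE 0.41), and was not called without it (1.24), nor without G9a-KO replicate 1 (1.64) or 2 (1.64).

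The largest fold changes of the 2-cell list came with the widest spreads. Gm4340 lay at 34.5 and 112 TPM in DKO and at 0 and 26.8 TPM in G9a-KO (3.59, SE 1.09). Gm4027 lay at 17.9 and 39.5 TPM in DKO and at 1.44 and 5.84 TPM in G9a-KO (2.76, SE 0.71). Tdpoz4 lay at 2.59 and 16.8 TPM in DKO and at 0.0794 and 0.315 TPM in G9a-KO (2.75, SE 0.87). In each of them DKO replicate 2 was the highest of the 4. Cml2, an acetyltransferase-like gene, lay at 5.71 and 13.8 TPM in DKO and at 0.183 and 0.412 TPM in G9a-KO (2.95, SE 0.69). All 4 lost their calls without DKO replicate 2, where Gm4340 was at 2.75 and Tdpoz4 at 1.59, and without G9a-KO replicate 1, where Gm4340 was at 1.19 and Tdpoz4 at 2.61. Tdpoz4 lost its call without G9a-KO replicate 2 as well (2.89). Fbxo15, an F-box protein gene, lay at 463 and 669 TPM in DKO and at 336 and 399 TPM in G9a-KO, and Kdm5b at 269 and 262 TPM in DKO and at 241 and 172 TPM in G9a-KO. Neither of these 2 was called. Most members of this list belong to families of near-identical copies, so the values of single members are uncertain.

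Obox4, a homeobox gene of the early embryo, rose without a wide spread. It lay at 83.29 and 83.99 TPM in DKO and at 18.04 and 19.84 TPM in G9a-KO (log2 fold change 2.09, SE 0.26, adjusted p = 1.91e-05; 2.08 without DKO replicate 2). It was the 1 called gene among 4 tested Obox genes, and Obox6 lay at 11.95 and 8.93 TPM in DKO and at 10.7 and 9.20 TPM in G9a-KO. Obox3 was listed at 0 and 0.103 TPM in DKO and at 0 in both G9a-KO libraries.

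In cells with endogenous Dux, the comparison of DKO with G9a-KO called 34 of 45 members of the 2-cell list higher and 0 lower. Their median log2 fold change was 2.32 (4.62% of all genes tested there were higher and 0.815% lower). Setdb1 itself lay at 25.8 and 32.5 TPM in Dux-intact DKO cells and at 42.6 and 47.8 TPM in Dux-intact G9a-KO cells (-0.62, SE 0.14, not called). Ehmt2 lay at 7.38 and 7.47 TPM in Dux-intact DKO cells and at 15.6 and 14.6 TPM in Dux-intact G9a-KO cells. Zscan4d lay at 333 and 316 TPM in those Dux-intact DKO cells and at 47.5 and 50.8 TPM in Dux-intact G9a-KO cells (2.7, SE 0.19). Usp17lb lay at 259 and 246 TPM in Dux-intact DKO cells and at 23.4 and 21.9 TPM in Dux-intact G9a-KO cells (3.42, SE 0.12). Obox4 lay at 167 and 220 TPM in Dux-intact DKO cells and at 37.1 and 35.0 TPM in Dux-intact G9a-KO cells (2.38, SE 0.14). The tables with and without endogenous Dux were normalised separately, so their values stand side by side and the difference between them was not tested. Germline genes gave like counts in both: with Dux intact 18 of 43 tested members were higher and 2 lower, with a median of 0.61. Sycp3 lay at 70.0 and 92.7 TPM in Dux-intact DKO cells and at 23.2 and 17.2 TPM in Dux-intact G9a-KO cells (1.96, SE 0.19).

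**Figure D3:**
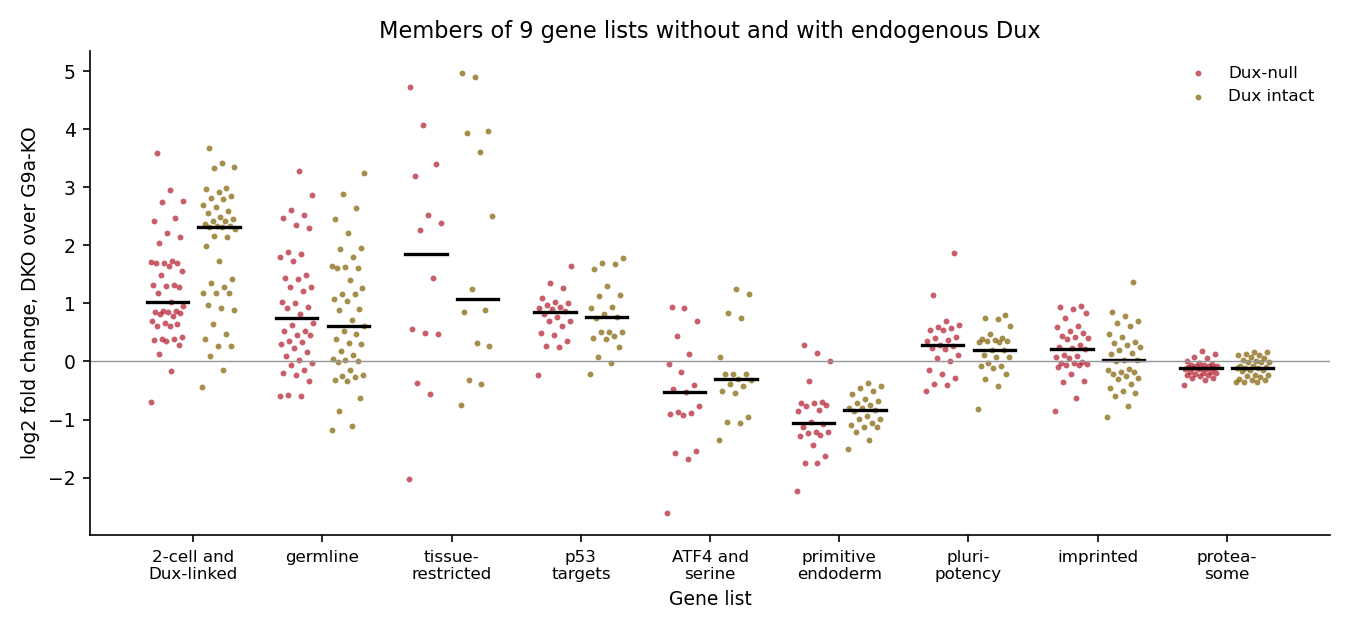
Log2 fold changes of DKO over G9a-KO for the tested members of 9 gene lists (points), without endogenous Dux in red and with it in brown, with medians as black bars. The 2-cell list has medians of 1.02 without and 2.32 with Dux, the germline list 0.74 and 0.61, and the proteasome list -0.12 and -0.11.

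Among genes of H3K9 methylation and silencing, Atf7ip rose. Atf7ip (chr6:136506167-136610862) encodes the partner that stabilises Setdb1 in the nucleus. It lay at 103 and 128 TPM in DKO and at 30.8 and 21.8 TPM in G9a-KO (log2 fold change 2.11, SE 0.27, adjusted p = 1.89e-05). Without DKO replicate 2 its log2 fold change was 1.95. Its paralog Atf7ip2 lay at 14.2 and 26.6 TPM in DKO and at 8.97 and 9.10 TPM in G9a-KO (1.03, SE 0.32), and its call was lost without that library (0.60), without either G9a-KO replicate (1.02 and 1.04) and after scaling. No other of the 23 tested members was called. Trim28 lay at 1017 and 951 TPM in DKO and at 1131 and 1027 TPM in G9a-KO. Cbx3, which encodes a protein that binds methylated H3K9, lay at 203 and 284 TPM in DKO and at 297 and 314 TPM in G9a-KO (-0.35, SE 0.14, adjusted p = 0.126).

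Targets of p53, the transcription factor of the DNA damage response, were higher in part. Of 22 tested members 6 were higher and none lower, with a median log2 fold change of 0.84. The count was 5 without DKO replicate 2, 9 without DKO replicate 1 and 3 after scaling by median ratios (3.01% of all genes called higher). Cdkn1a (chr17:29090976-29100727), the cell cycle inhibitor p21, lay at 217 and 221 TPM in DKO and at 83.7 and 97.2 TPM in G9a-KO (1.27, SE 0.16, adjusted p = 2.32e-05). Plk2, a kinase induced by stress, lay at 84.1 and 128 TPM in DKO and at 29.1 and 35.9 TPM in G9a-KO (1.65, SE 0.32). Trp53inp1, a pro-death cofactor of p53, lay at 177 and 246 TPM in DKO and at 80.7 and 81.4 TPM in G9a-KO (1.35, SE 0.21). These 3 held in each of those fits. Gtse1 (1.09, SE 0.19) lay at 234 and 283 TPM in DKO and at 133 and 109 TPM in G9a-KO, and lost its call without DKO replicate 2 and after scaling. Bbc3 (1.03) and Pmaip1 (1.0), which encode pro-apoptotic BH3 proteins, completed the 6 and lost their calls after scaling, at 0.89 and 0.86, and without either G9a-KO replicate, at 0.99 to 1.03. Without DKO replicate 1 Bbc3 (0.80) and without DKO replicate 2 Pmaip1 (0.74) lost theirs, and Gtse1 lost its own without G9a-KO replicate 2 (0.94). Ccng1 lay at 206 and 300 TPM in DKO and at 144 and 161 TPM in G9a-KO (0.70, SE 0.18, adjusted p = 0.0131), under the fold threshold. Bax lay at 620 and 578 TPM in DKO and at 504 and 490 TPM in G9a-KO (0.27, SE 0.093). Among 11 cyclins and cell cycle inhibitors, Ccnd2, which encodes a D-type cyclin, fell: 1.188 and 1.501 TPM in DKO against 6.03 and 7.51 TPM in G9a-KO (-1.73, SE 0.18). Cdk4 lay at 824 and 719 TPM in DKO and at 841 and 833 TPM in G9a-KO, and Ccnd3 at 865 and 615 TPM in DKO and at 837 and 776 TPM in G9a-KO, and neither was called.

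Part of the genes of the primitive endoderm, an early lineage beside the epiblast, were lower in DKO. Of 24 tested members 10 were lower, none was higher and 14 were not called, with a median log2 fold change of -1.05. The count was 10 without DKO replicate 2, 12 without G9a-KO replicate 1 (1.14% of all genes called lower), 4 without G9a-KO replicate 2 (1.18%), 5 without DKO replicate 1 and 9 without the 6 libraries high in nuclear RNA (1.48%). The summed level of all 25 genes of the list was 1054 and 1459 TPM in DKO and 2068 and 2813 TPM in G9a-KO, and fewer such cells and less RNA per cell cannot be told apart in bulk samples. Cubn (chr2:13276338-13491813), the endocytic receptor cubilin, lay at 7.35 and 11.4 TPM in DKO and at 38.6 and 56.4 TPM in G9a-KO (-2.23, SE 0.36, adjusted p = 0.000263). Its partner gene Amn lay at 5.96 and 3.97 TPM in DKO and at 13.95 and 24.87 TPM in G9a-KO (-1.74, SE 0.24). Dab2, an endocytic adaptor gene, lay at 12.4 and 27.6 TPM in DKO and at 49.96 and 84.21 TPM in G9a-KO (-1.76, SE 0.39). In all 3 G9a-KO replicate 2 was the highest library.

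The call of Dab2 was lost without G9a-KO replicate 2 (-1.38) and without DKO replicate 1 (-1.21). Fst, the activin-binding protein follistatin, lay at 2.602 and 3.105 TPM in DKO and at 8.59 and 13.6 TPM in G9a-KO (-1.62, SE 0.23). Sox17, a defining transcription factor of the lineage named after its values were seen, lay at 5.55 and 2.63 TPM in DKO and at 8.91 and 16.6 TPM in G9a-KO (-1.44, SE 0.27). The call of Sox17 was lost without the libraries high in nuclear RNA (-1.01). Foxa2, a further factor of the lineage chosen in the same way, lay at 2.02 and 3.21 TPM in DKO and at 4.41 and 11.8 TPM in G9a-KO, and lost its call without DKO replicate 1 (-0.99) and without G9a-KO replicate 2 (-0.60). Gata4, another such factor chosen in the same way, lay at 35.0 and 37.6 TPM in DKO and at 51.1 and 86.6 TPM in G9a-KO (-0.86, SE 0.23) and was not called, but it was lower after scaling (-1.0) and without G9a-KO replicate 1 (-1.23). Sparc, a matrix protein gene, lay at 319 and 386 TPM in DKO and at 496 and 723 TPM in G9a-KO (-0.77, SE 0.18, adjusted p = 0.00575), under the fold threshold, and was called lower without G9a-KO replicate 1 (-1.04). Lamc1, a laminin gene, lay at 154 and 181 TPM in DKO and at 308 and 245 TPM in G9a-KO (-0.71, SE 0.35, adjusted p = 0.217).

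Of 19 tested genes of the ATF4 stress response and of serine synthesis 4 were lower, none was higher and 15 were not called, with a median of -0.52 (-0.55 with the same counts without DKO replicate 2). Without G9a-KO replicate 1, 4 were lower and 1 was higher, with a median of -0.29. Without G9a-KO replicate 2, 7 were lower, with a median of -0.77, and without DKO replicate 1, 5 were lower and 1 was higher. After scaling 6 were lower (1.72% of all genes called lower). With Dux intact 3 of 18 were lower and 2 were higher. Chac1 (chr2:119351229-119354381), which degrades glutathione, lay at 2.84 and 2.21 TPM in DKO and at 23.7 and 17.6 TPM in G9a-KO (-2.61, SE 0.26, adjusted p = 1.25e-06). Phgdh (chr3:98313170-98339990), the first enzyme of serine synthesis, lay at 38.1 and 36.7 TPM in DKO and at 142 and 105 TPM in G9a-KO (-1.68, SE 0.22). Psat1, the next enzyme of that pathway, lay at 105.3 and 83.02 TPM in DKO and at 322 and 244 TPM in G9a-KO (-1.57, SE 0.27). Mthfd2, of mitochondrial one-carbon metabolism, lay at 29.6 and 35.9 TPM in DKO and at 107 and 86.9 TPM in G9a-KO (-1.54, SE 0.15). Psat1 had the highest TPM of these 4 in every DKO and G9a-KO library. Atf4 itself lay at 157 and 321 TPM in DKO and at 321 and 275 TPM in G9a-KO, with overlapping groups, and Slc3a2, an amino acid transporter subunit, lay at 279 and 246 TPM in DKO and at 329 and 266 TPM in G9a-KO. Pck2, the mitochondrial phosphoenolpyruvate carboxykinase, is not on this list and was among the 15 largest falls of named genes. It lay at 4.36 and 3.84 TPM in DKO and at 25.4 and 13.7 TPM in G9a-KO (-1.95, SE 0.25). With Dux intact, Chac1 lay at 4.32 and 3.49 TPM in DKO and at 5.18 and 4.85 TPM in G9a-KO (-0.30, SE 0.15, adjusted p = 0.149), and Phgdh at 33.7 and 29.2 TPM in DKO and at 69.8 and 63.7 TPM in G9a-KO (-1.07, SE 0.12).

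The other large falls came from several gene classes. Gpc3, a cell surface proteoglycan gene, lay at 2.68 and 2.96 TPM in DKO and at 15.9 and 16.2 TPM in G9a-KO (-2.16, SE 0.21). Slc6a2, the noradrenaline transporter gene, lay at 0.362 and 0.0598 TPM in DKO and at 3.06 and 5.31 TPM in G9a-KO (-2.08, SE 0.18). Stra6, a retinol uptake receptor gene, lay at 1.288 and 2.597 TPM in DKO and at 7.67 and 12.7 TPM in G9a-KO (-1.92, SE 0.27). All 3 were low in both DKO libraries. Akr1c18, a hydroxysteroid dehydrogenase gene, lay at 1.46 and 2.48 TPM in DKO and at 7.96 and 14.8 TPM in G9a-KO (-2.03, SE 0.40), the opposite direction to its relative Akr1c21, and was not called with a pseudocount of 0.1 (adjusted p = 0.0911). Msc, a transcription factor gene, lay at 9.89 and 7.57 TPM in DKO and at 31.9 and 33.1 TPM in G9a-KO (-1.80, SE 0.25). S100a1, which encodes a calcium-binding protein, lay at 0.568 and 2.06 TPM in DKO and at 6.23 and 16.2 TPM in G9a-KO (-2.35, SE 0.54). Prss35 (-1.99), Gtsf1l (-1.84) and Plac8 (-1.77) were also among the 15 largest falls of named genes and held without DKO replicate 2. S100g (-1.88), Adm (-2.00) and Egln3 (-1.97) were the 3 of the 15 that were not called without it, at -2.02, -1.22 and -1.13. Adm and Egln3 also lost the call without G9a-KO replicate 1, at -1.38 and -1.72. S100a1 and S100g lost it without G9a-KO replicate 2, at -1.72 and -1.31, and without DKO replicate 1, at -1.86 and -1.74.

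**Figure D4:**
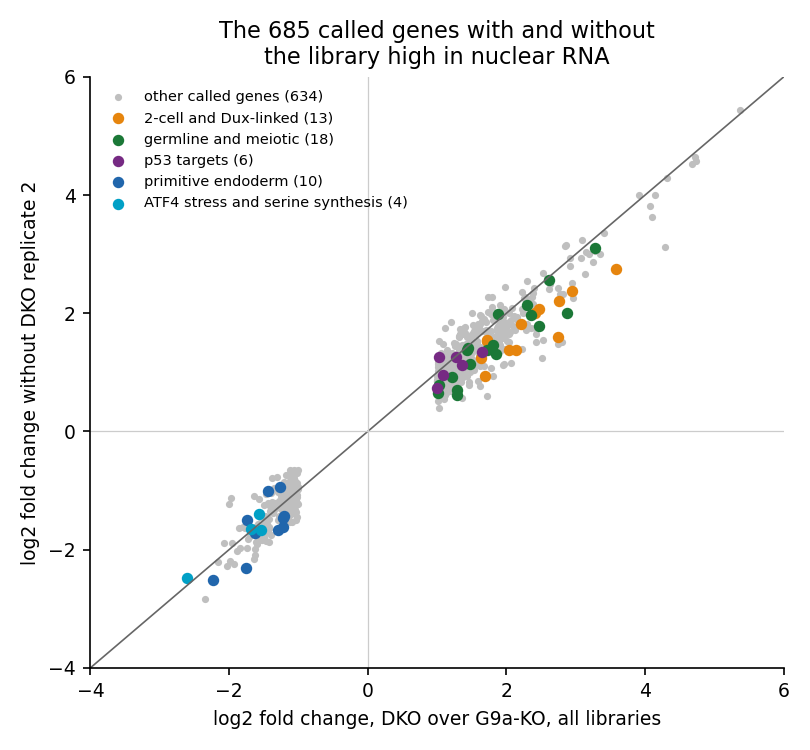
Log2 fold changes of DKO over G9a-KO with all libraries (horizontal axis) and without DKO replicate 2 (vertical axis) for the 685 called genes, with members of 5 lists in colour and the line of equal values in grey. All 685 kept their sign, and the 13 higher 2-cell genes (orange) lie below the line.

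Over all tested genes 3.73% were higher and 1.22% lower, so the few calls in the lists of this paragraph say little of the lists as groups. Of 25 tested pluripotency genes 1 was higher. It was Tbx3, a transcription factor gene, at 86.7 and 109 TPM in DKO and 27.1 and 24.9 TPM in G9a-KO (1.87, SE 0.30). Dppa5a lay at 4732 and 5150 TPM in DKO and at 3913 and 4357 TPM in G9a-KO, and Pou5f1 had a log2 fold change of 0.35 (SE 0.18, adjusted p = 0.225). Of 19 primed epiblast and germ layer genes 2 were higher. Nodal, a TGF-beta family ligand, lay at 153 and 149 TPM in DKO and at 69.2 and 73.0 TPM in G9a-KO (1.08, SE 0.13), and lost its call after scaling. Fgf5, a growth factor gene of the primed epiblast, lay at 5.36 and 7.87 TPM in DKO and at 1.94 and 3.09 TPM in G9a-KO (1.12, SE 0.21), and lost its call after scaling, without DKO replicate 2 (0.88) and without G9a-KO replicate 1 (0.88). Dnmt3b, a DNA methyltransferase gene, lay at 110 and 135 TPM in DKO and at 132 and 134 TPM in G9a-KO, and was not called.

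The trophoblast and interferon lists also held few calls, beside 3.73% higher and 1.22% lower over all tested genes, and say little as groups. Of 16 trophoblast genes none was higher and Krt19, a keratin gene, was lower, at 22.9 and 15.5 TPM in DKO and 46.8 and 48.7 TPM in G9a-KO (-1.29, SE 0.30), a call lost without DKO replicate 2 (-1.03). Tfap2c, a transcription factor gene, lay at 35.5 and 37.4 TPM in DKO and at 15.5 and 20.6 TPM in G9a-KO (0.99, SE 0.26, adjusted p = 0.0155), just under the fold threshold. It was called higher with a pseudocount of 0.1 (1.03), without G9a-KO replicate 2 (1.18) and without DKO replicate 1 (1.03). Krt8, a keratin gene, lay at 27.6 and 58.7 TPM in DKO and at 16.2 and 33.3 TPM in G9a-KO. Of 15 genes of interferon response and nucleic acid sensing 2 were higher: Oas1a, at 4.37 and 5.45 TPM in DKO and 0.814 and 1.70 TPM in G9a-KO, and Bst2, at 81.9 and 92.9 TPM in DKO and 35.7 and 41.1 TPM in G9a-KO. The call of Bst2 was lost without DKO replicate 2 (1.08) and without G9a-KO replicate 1 (1.07). Ifitm3 lay at 164 and 145 TPM in DKO and at 249 and 237 TPM in G9a-KO (-0.65, SE 0.13, adjusted p = 0.00204), under the fold threshold, and B2m at 31.9 and 25.1 TPM in DKO and at 33.9 and 31.2 TPM in G9a-KO.

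Of 10 fibroblast genes Lum, a matrix proteoglycan gene, was higher, at 2.39 and 2.66 TPM in DKO and 0 and 0.137 TPM in G9a-KO, and Tagln, of smooth muscle actin filaments, was lower, at 1.108 and 2.596 TPM in DKO and 6.09 and 7.12 TPM in G9a-KO. With 3.73% of all tested genes higher and 1.22% lower, these calls say little of so short a list. The summed level of all 15 genes of that list was 12.8 and 15.5 TPM in DKO and 20.7 and 19.3 TPM in G9a-KO. Col5a2 lay at 2.16 and 4.12 TPM in DKO and at 6.81 and 4.14 TPM in G9a-KO, and Thy1 at 3.69 and 3.04 TPM in DKO and at 1.44 and 2.26 TPM in G9a-KO, and neither was called, though Col5a2 was lower without DKO replicate 2 (-1.005). None of 31 proteasome genes, read as a comparator, was called, against 4.96% of all tested genes. Psmb3 lay at 848 and 678 TPM in DKO and at 895 and 885 TPM in G9a-KO. Psmb5 lay at 903 and 627 TPM in DKO and at 813 and 832 TPM in G9a-KO. Of 8 nuclear-retained long non-coding RNAs none was called, with a log2 fold change of 1.70 (SE 1.41) for Neat1 and 1.19 (SE 1.01) for Malat1. Of 15 tested Snhg genes Snhg10 was called higher, at 2.51 and 1.70 TPM in DKO and listed at 0 in both G9a-KO libraries, and no Snhg gene was called without DKO replicate 2. Snhg10 also lost its call without any other single library, at 1.44 to 1.62. Snhg1 lay at 185 and 439 TPM in DKO and at 239 and 329 TPM in G9a-KO, and Snhg6 at 90.9 and 147 TPM in DKO and at 107 and 102 TPM in G9a-KO.

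The effect of Setdb1 loss in the G9a-KO line was then set against its effect in the Dux-null control line, which kept G9a. Loss of Setdb1 in that line called 231 genes higher (1.67%) and 117 lower (0.847%). Of the 516 genes higher in DKO, 136 (26.4%, and 58.9% of the 231) were also higher there, and of the 169 lower genes 41 (24.3%, and 35% of the 117) were also lower. The difference between the 2 effects was tested directly, and it was called in 76 genes toward higher in the G9a-KO line (0.55%) and in 12 toward lower (0.0868%). The count of 76 was 49 without control replicate 1, 43 without Setdb1-KO replicate 1 and 48 without DKO replicate 2, and the count of 12 was 21 without G9a-KO replicate 1. In each group of the control line 1 library was high in nuclear RNA, control replicate 1 and Setdb1-KO replicate 2. The same 2 libraries held the imprinted gene Snrpn at 1.06 and 0.690 TPM, against 60.4 TPM in the other Setdb1-KO library and 63.4 TPM in the other control library. Without the high nuclear RNA libraries, 45 of the 76 and 5 of the 12 differences were called again.

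The difference was called for 8 of the 15 largest rises, which the same DKO and G9a-KO libraries had picked out. Reg1 lay at 0.544 and 0.132 TPM in Setdb1-KO and at 0.118 and 0.229 TPM in control cells, and the difference between lines was 4.55 on the log2 scale (SE 0.38, adjusted p = 6.76e-07). Mup3 lay at 0.324 and 0 TPM in Setdb1-KO and was listed at 0 in both control libraries (difference 4.12, SE 0.23). Spag16 lay at 0.0872 and 0.223 TPM in Setdb1-KO and at 0.543 and 0.455 TPM in control cells (difference 3.73, SE 0.31). These genes were nearly silent in the control line whether or not Setdb1 was present. Asb12, Cyp4a12b, Clec2g, Pnliprp2 and Clvs1 were the other 5, and all 8 kept the call without the high nuclear RNA libraries. With a pseudocount of 0.1 the difference was not called for Asb12 (3.21), Clec2g (2.301) or Clvs1 (1.09). In a fit of only the groups compared, those 3 and Pnliprp2 were not called (adjusted p = 0.0505 to 0.321). Slc6a2 was the 1 of the 15 largest falls with a called difference (-2.00, SE 0.25), at 0.0627 and 0 TPM in Setdb1-KO and 0.0963 and 0.0731 TPM in control cells, and it was not called with either of these alternatives. With so little RNA in control cells, Slc6a2 could hardly fall in that line.

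Other genes were called in both lines. Tex101 lay at 30.8 and 30.8 TPM in Setdb1-KO and at 1.84 and 1.34 TPM in control cells (log2 fold change 3.63; difference between lines -0.35, SE 0.43, adjusted p = 0.908). Mmp12 lay at 12.3 and 18.3 TPM in Setdb1-KO and at 0.204 and 0.271 TPM in control cells (3.69). Slc25a31 lay at 24.0 and 21.9 TPM in Setdb1-KO and at 3.77 and 4.62 TPM in control cells (2.21). Among germline genes 18 of 44 were higher in the control line as well, against 1.67% of all tested genes. The difference between lines was called for none of the 44. Over all tested genes it was called in 0.55% toward higher and 0.0868% toward lower, so this absence says little. Akr1c21 lay at 13.0 and 18.9 TPM in Setdb1-KO and at 0.514 and 0.752 TPM in control cells (3.36), with levels well under the 161 and 228 TPM of DKO at a like fold change. Its relative Akr1c13 was called higher in the control line, at 4.19 and 3.21 TPM in Setdb1-KO and 0.991 and 1.59 TPM in control cells, and it lay at 38.0 and 36.6 TPM in DKO and 59.2 and 52.4 TPM in G9a-KO (difference -1.61, adjusted p = 0.019, not called without the high nuclear RNA libraries). Chac1 lay at 3.17 and 4.51 TPM in Setdb1-KO and at 10.03 and 11.34 TPM in control cells (-1.28), and Cubn at 5.79 and 6.08 TPM in Setdb1-KO and at 21.1 and 44.8 TPM in control cells (-2.20).

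**Figure D5:**
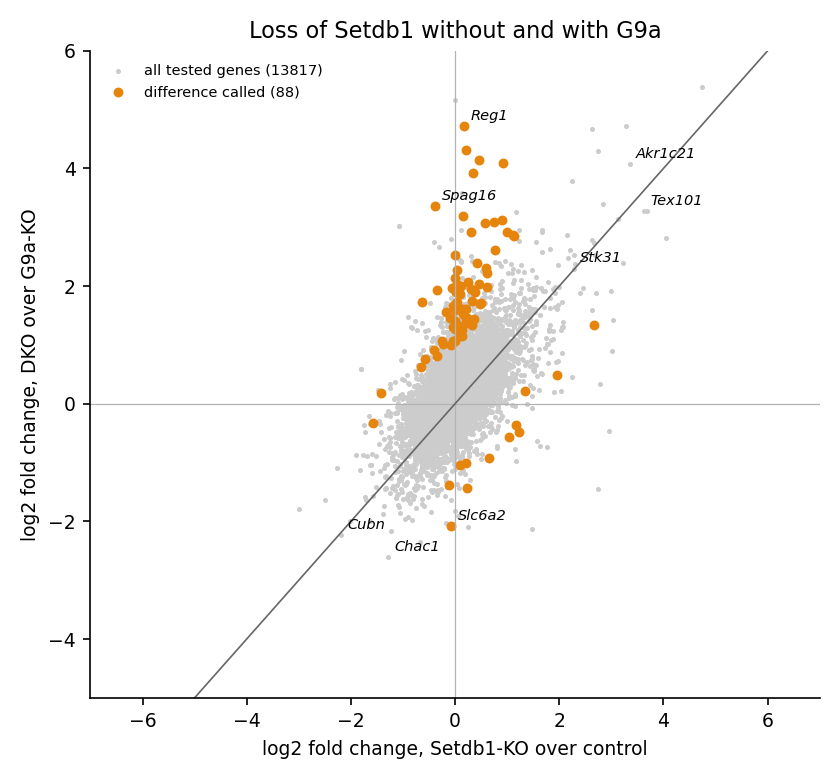
Log2 fold change of Setdb1-KO over control (horizontal axis) and of DKO over G9a-KO (vertical axis) for 13817 tested genes, without doxycycline and without endogenous Dux, with the line of equal values. The 88 genes with a called difference are in orange, Reg1 at 0.17 and 4.72 among them, while Tex101 (3.63 and 3.27) lies near the line.

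The 2 further comparisons of DKO with G9a-KO used other libraries. With doxycycline, 264 genes were higher (1.91%) and 308 lower (2.23%) in DKO, and each group held 1 library high in nuclear RNA. The Dux transgene lay at 39.7 and 40.4 TPM in DKO and at 55.5 and 58.0 TPM in G9a-KO given doxycycline, so its level was not equal between these groups. Without the second G9a-KO library given doxycycline, 404 genes were higher. Of the 516 genes higher without doxycycline, 233 (45.2%, and 88.3% of the 264) were also higher with it, and of the 169 lower genes 135 (79.9%, and 43.8% of the 308). All 15 of the largest rises and all 15 of the largest falls were called in the same direction with doxycycline. Of the 24 primitive endoderm genes 21 were lower there, with a median of -1.78, and 17 of the 44 germline genes were higher. Obox4 was not called with doxycycline (0.22). With endogenous Dux intact, 320 of the 516 (62%, and 52.3% of the 612 higher genes tested in both tables) were also higher, and 45 of the 169 (26.6%, and 40.5% of 111) were also lower. Without the second Dux-intact DKO library, 221 genes were lower there against 113 with it. All 15 of the largest rises and 5 of the 15 largest falls were called there in the same direction. No gene called here was called in the opposite direction with doxycycline, with Dux intact or in the control line.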

How the data were processed

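Poly(A) RNA of 4 libraries, 2 per group, was compared within the table of 32 libraries in which the authors deposited them. Values are TPM, scaled by transcript length and library total, as deposited by the authors. RSEM 1.3.1, STAR 2.7.10b, SAMtools 1.9 and Bowtie2 2.3.4.1 are named, per the submitters' processing notes, which give no role for each. Libraries were stranded and paired-end, per the labels' protocols. TPM hold no read counts, so depth is unknown, no count test was run and no interval for counting error is given.

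From these values, log2(TPM+1) was computed, genes with 1 TPM or more in at least 2 libraries were kept (13817 genes), and limma 3.58.1 in R 4.3.3 was fitted with an intensity trend over all 16 groups, which share 1 estimate of the spread (16 residual degrees of freedom). P-values were adjusted over all tested genes by the Benjamini-Hochberg method. Fold changes on this scale understate the change of low genes. Calls needed an adjusted p under 0.05 and a log2 fold change of 1 or more in size. The table with endogenous Dux (18 libraries, 13862 genes tested) was fitted separately. Libraries whose Snhg genes had a mean log2 value over 4 formed the class of high nuclear RNA, which was fitted as a term in one alternative. Scaling by median ratios was another. The code was tested on simulated data.

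Named genes were the targeted genes, the 15 largest called rises and falls whose libraries did not overlap (without predicted gene names), and up to 4 called and 2 abundant uncalled members of each list, apart from those said to be chosen after their values were seen. One gene that this rule names is not reported here. The members and lists were chosen with earlier results of these data known. Gene positions are from GENCODE M21 and promoters from RefSeq, both on GRCm38.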

Additional observations from a re-analysis of the deposited data

Results flagged for a closer look

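For 12 of the genes named above, the effect of Setdb1 loss differed between the G9a-KO line and the control line by limma's test of the difference itself, on the log2 scale. The genes that moved further up in the G9a-KO line were Reg1 (4.55), Mup3 (4.12), Spag16 (3.73), Asb12 (3.70), Cyp4a12b (3.57), Clec2g (3.19), Pnliprp2 (3.05), Usp17ld (2.36), Clvs1 (2.24) and Lum (1.70). The difference was negative for Slc6a2 (-2.00) and Akr1c13 (-1.61). Slc6a2 lay at 0.0627 and 0 TPM in Setdb1-KO and at 0.0963 and 0.0731 TPM in control cells. It could therefore hardly fall in the control line, whatever the effect of Setdb1 loss there. Akr1c13 was called higher in the control line and lay lower in DKO than in G9a-KO. Reg1 lay at 41.5 and 46.4 TPM in the 2 DKO libraries, against at most 1.3 TPM in G9a-KO, and at most 0.544 TPM in Setdb1-KO and 0.229 TPM in control cells. The differences of Usp17ld and Akr1c13 were not called without the libraries high in nuclear RNA, at 2.09 and -1.54, and the other 10 were. With a pseudocount of 0.1, 4 of the 12 were not called: Asb12 (3.21), Clec2g (2.301), Clvs1 (1.09) and Slc6a2 (-3.40). In a fit of only the groups compared, 8 of the 12 were not called, and Reg1, Mup3, Spag16 and Cyp4a12b were. That 1 library of each control line group was both high in nuclear RNA and near 1 TPM for Snrpn was not tested as a source of any of them. Usp17ld lost its call without any 1 of control replicate 2, Setdb1-KO replicate 2, G9a-KO replicate 2 or DKO replicate 2, at 2.06 to 2.29, and Akr1c13 without any 1 of control replicate 1, Setdb1-KO replicate 1, either G9a-KO replicate or DKO replicate 2, at -1.69 to -1.42. No library could be tested for standing apart within its group, since each group held 2.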

How the results depend on the processing

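Of 130 genes named and tested, 86 were called. When limma was fitted only to the groups compared, 56 lost their call (Adm, Akr1c18, Amn, Ankrd37, Atf7ip2, Bbc3, Bglap3, Bnip3, Brdt, Bst2, Ccnd2, Cml2, Cubn, Dab2, Dazl, Ddx4, Egln3, Fgf5, Foxa2, Fst, Gm4027, Gm4340, Gtse1, Gtsf1l, Krt19, Ldha, Mov10l1, Msc, Ndrg1, Nodal, Oas1a, P4ha1, Pck2, Pgk1, Piwil2, Plac8, Plk2, Pmaip1, Prss35, S100a1, S100g, Setdb1, Slc6a2, Snhg10, Sox17, Stc1, Stra6, Taf7l, Tagln, Tdpoz4, Tex15, Tex19.1, Trp53inp1, Usp17lb, Usp17ld, Zscan4d), and the calls numbered 66 higher and 7 lower, with 6 and 0 for the difference from the control line (426 and 185 at an unadjusted p under 0.05) and 2 and 0 with doxycycline (595 and 1113). The cause was not tested beyond the fewer libraries in those fits. The comparison called 332 to 785 genes higher when 1 library was left out, the difference 43 to 100 higher and 8 to 21 lower, the comparison with doxycycline 194 to 404 higher, and the one with Dux intact 81 to 221 lower. A pseudocount of 0.1 gave 36 higher differences, 536 lower genes with doxycycline, and 1056 higher and 238 lower with Dux intact. For lower differences, scaling by median ratios gave 25 and the nuclear RNA term 37.

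Same-numbered libraries of DKO and G9a-KO deviated together with a correlation of -0.0056, where all pairs of groups ranged from -0.647 to 0.748. DKO replicate 2 was high in nuclear RNA and neither G9a-KO library was, so this value cannot show whether the numbers pair them. With the replicate block 571 genes were higher and 178 lower, the lower differences numbered 26, and no named gene changed its call.

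Some uncalled genes changed sign. After scaling they were Dnmt3l (-0.14), Gnas (-0.026), Magea2 (-0.11), Magea8 (-0.14), Obox6 (-0.075), Snhg1 (-0.12) and Snhg6 (-0.0015). With the nuclear RNA term, without the 6 high nuclear RNA libraries, and without DKO replicate 2 after scaling (chosen after seeing the data), the values in that order were 0.038, 0.10 and 0.11 for Ccnd3, -0.023, -0.052 and -0.043 for Magea2, -0.039, -0.072 and -0.063 for Magea8, -0.022, -0.21 and -0.20 for Malat1, 0.054, 0.086 and 0.095 for Mov10, -0.065, -0.22 and -0.21 for Neat1, 0.11, 0.14 and 0.14 for Psmb5, -0.53, -0.60 and -0.59 for Snhg1, -0.089, -0.20 and -0.19 for Snhg6, and -0.0025, -0.089 and -0.081 for Suv39h1. Dnmt3l was at -0.0048 without the 6 libraries. With 1 library left out, the ranges were -0.54 to 0.15 for Mov10, -0.11 to 0.12 for Magea8, -0.16 to 0.22 for Magea2, -0.017 to 0.020 for Dnmt3l, -0.30 to 0.24 for Uhrf1, -0.60 to 0.65 for Snhg1, -0.14 to 0.25 for Obox6, -0.38 to 0.096 for Rpl10l, -0.27 to 0.025 for Dnmt3b, -0.92 to 0.11 for Atf4, -0.089 to 0.50 for Suv39h1, -0.39 to 0.10 for Ccnd3, -0.22 to 3.63 for Neat1, -0.21 to 2.58 for Malat1, -0.20 to 0.49 for Snhg6 and -0.39 to 0.14 for Psmb5.

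Each group held 2 libraries, depth is unknown, and members of multi-copy families cannot be separated with certainty.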

Other observations

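The 9 genes that follow, which low oxygen is known to induce, were picked because they had been called lower in DKO, so they say nothing of such genes as a group. Adm, which encodes the peptide adrenomedullin, lay at 9.898 and 2.695 TPM in DKO and at 38.2 and 15.5 TPM in G9a-KO. Egln3, an oxygen-sensing prolyl hydroxylase gene, lay at 67.8 and 20.4 TPM in DKO and at 178 and 125 TPM in G9a-KO. In both genes DKO replicate 2 was the lowest library. The glycolytic enzyme gene Ldha lay at 1562 and 1003 TPM in DKO and at 2579 and 2485 TPM in G9a-KO, and Pgk1 at 937 and 697 TPM in DKO and at 1788 and 1575 TPM in G9a-KO. Bnip3, a mitophagy receptor gene, lay at 189 and 98.9 TPM in DKO and at 340 and 260 TPM in G9a-KO, and Ankrd37 at 32.9 and 15.1 TPM in DKO and at 55.7 and 58.0 TPM in G9a-KO. P4ha1, a collagen prolyl hydroxylase gene, lay at 37.4 and 33.2 TPM in DKO and at 72.0 and 72.6 TPM in G9a-KO. These 7 were called lower, and none of them was without DKO replicate 2. Adm, Egln3, Bnip3, Ldha and Pgk1 also lost their calls without G9a-KO replicate 1, at -1.38, -1.72, -0.93, -0.99 and -0.96. Ndrg1, at 32.6 and 23.3 TPM in DKO and 88.0 and 66.7 TPM in G9a-KO, and the hormone gene Stc1, at 0.233 and 0.219 TPM in DKO and 4.40 and 1.68 TPM in G9a-KO, were called lower with and without that library, though Stc1 was not without G9a-KO replicate 1 (-1.13).

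Some called genes lay near another gene called in the same direction. Of 489 higher genes with a position, 96 (19.6%) had another higher gene within 100000 bases, against 10.7% of 12624 uncalled genes. Of 167 lower genes 17 (10.2%) had another lower gene as near, against 3.53% of uncalled genes. The pairs and groups included the Clec2 genes and the neighbours Mmp12 and Mmp1b. Tandem copies of one family share sequence, so some of these neighbours may share reads, and the shares are descriptions with no test.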
